A study of Capra hircus with 10 samples.

Results

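Interferon-stimulated and RNA-sensing genes were examined in goat mammary gland cells that received a virus or none, to see whether virus delivery went with an antiviral program. The genes were chosen by symbol: 39 were listed, and a row counted where its identifier was the NCBI gene of the goat gene with that symbol. Of these, 34 had a row among the 17197 genes of the table. IFIT1, OAS2, GBP2 and USP18 matched no goat symbol in the RefSeq table used, and CXCL10 matched a gene without a row. The 10 libraries came from mammary gland cells of Lanshan dairy goats kept in 3D culture. They fall into 5 groups of 2: Blank (no virus named, genotype control), Lv5NC (genotype 5NC), OV55666 (overexpression of lncRNA55666, a long noncoding RNA), Lv3NC (genotype 3NC) and KD553 (knockdown of lncRNA55666). The series text has the overexpression and the knockdown delivered by virus and lists 5NC and 3NC just before them, so Lv5NC and Lv3NC served as their controls. The labels name neither the promoter nor the dose of any virus, nor the time after delivery, and they do not state that a group has 2 different cultures or goats behind it. The p-values therefore rest on the spread between libraries alone, and that spread may be technical.

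Cells notice viral RNA with the helicases RIG-I (gene DDX58) and MDA5 (IFIH1) in the cytosol and with TLR3 in endosomes. The helicases signal through MAVS on mitochondria to the transcription factors IRF3 and IRF7, which switch on type I interferon genes. Secreted interferon binds its receptor, IFNAR1 with IFNAR2, and a complex that holds STAT2 and IRF9 then carries the signal to the nucleus and raises many interferon-stimulated genes, among them the IFIT, MX, OAS and ISG15 genes. IRF1 is a separate factor that interferon gamma and inflammatory cytokines can induce, and its known targets include genes of the immunoproteasome and of peptide transport. In fibroblasts and epithelial cells many of the interferon-stimulated genes rise strongly once interferon is present, from basal levels that differ between genes.

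Levels are given in FPKM (fragments per kilobase of transcript, scaled to the total of mapped fragments), which corrects for length, so levels of different genes can be set side by side. The number of reads behind a value is unknown. Before the comparisons, a difference between the Blank libraries has to be named. In Blank-2, 72.8% of the 11340 tested genes were lower than in Blank-1, and so were 28 of the 30 tested members. Which of these libraries stood apart cannot be told from their difference. For comparisons with Blank, medians, called genes and the genes that lay outside the Blank range are therefore also given without Blank-2. Many of these values are given without Blank-1 too. Most fibroblast markers were abundant and most luminal epithelial ones near 0. COL1A1 lay between 4641 and 5859 FPKM, while FBLN1 and POSTN reached at most 7.60 and 0.81. The epithelial genes KRT8, EPCAM and CDH1 reached at most 0.02. Of 10 luminal epithelial markers with a row, 8 were below 1 FPKM in every library, and the sum of all 10 was 6.85 to 9.40 in the Blank libraries and 10.6 to 13.5 in the virus libraries. ESR1 made up most of that sum, at 7.26 and 5.15 FPKM in Blank and between 8.77 and 12.0 in the virus libraries. Of the basal or myoepithelial markers, KRT14, TP63 and OXTR reached at most 0.14, while ACTA2 lay between 667.5 and 1247 FPKM and MYLK between 208 and 553, both highest in Blank-2. The sum of that list was 1092 to 1800 in the Blank libraries and 888 to 1254 in the virus libraries. Of 10 leukocyte markers with a row, 7 were below 1 FPKM in every library, PTPRC at most 0.01 among them. The summed level of the 10 was 21.2 to 32.0 in the Blank libraries and 28.3 to 44.6 in the virus libraries, of which CD14 alone made up 21.6 to 37.2 in the virus libraries. CD68 and ITGAX were the others to reach 1 FPKM. The part of these markers in the results was not tested. In such bulk samples a change in the number of cells that express a gene and a change in RNA per cell cannot be told apart.

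The machinery for sensing RNA and receiving interferon was present in every library. Among the receptor chains, IFNAR1 lay between 7.60 and 9.55 FPKM and IFNAR2 between 4.78 and 6.64. Of the sensors and their partners, DHX58, a helicase that modulates the others, lay between 6.21 and 7.42, DDX58 between 1.44 and 2.79, IFIH1 between 1.05 and 2.05 and TLR3 between 2.52 and 3.94. The adaptor MAVS lay between 10.7 and 12.9. TRIM25, a ubiquitin ligase that activates RIG-I, lay between 9.13 and 10.5. EIF2AK2, the kinase PKR that halts translation on double-stranded RNA, lay between 5.53 and 8.35, and ADAR, which edits double-stranded RNA, between 16.4 and 19.3. Among the transcription factors, IRF3 (25.1 to 30.6), IRF9 (12.7 to 19.7) and STAT2 (10.9 to 12.8) were well above IRF1 (0.98 to 2.96) and IRF7 (at most 0.42).

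The effector genes spanned a wide range of levels. MX1, a GTPase that traps viral nucleocapsids, had the highest level of the effectors, between 32.0 and 49.3 FPKM, followed on average by IFI6, IFIT5 and SAMHD1. SAMHD1, which depletes the nucleotides that retroviruses need for reverse transcription, lay between 7.99 and 20.6, IFI6 between 12.2 and 33.3 and IFIT5, which binds viral RNA ends, between 17.2 and 21.6. ISG15, a ubiquitin-like protein that interferon induces strongly, lay between 1.12 and 2.76, and IFIT2 and IFIT3 between 0.93 and 3.86. MX2, RSAD2, IRF7 and PSMB9 were below 1 FPKM in every library and were not tested. RSAD2, the antiviral enzyme viperin, reached at most 0.28. The other 30 members passed the filter on low values (at least 1 FPKM in at least 2 libraries), IFIT2, BST2 and IRF1 with values on either side of 1, IRF1 being below it in Blank-2 alone. Within the MX, IFIT and IFI44 families, reads of similar copies may have been split or shared, since the counting is not described. Of the antigen-processing genes, B2M, the light chain of MHC class I, lay between 237 and 314, far above TAP1 (2.97 to 4.42) and PSMB8 (2.10 to 4.72). The median of the 34 mean levels was 3.76 FPKM.

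**Figure D1:**
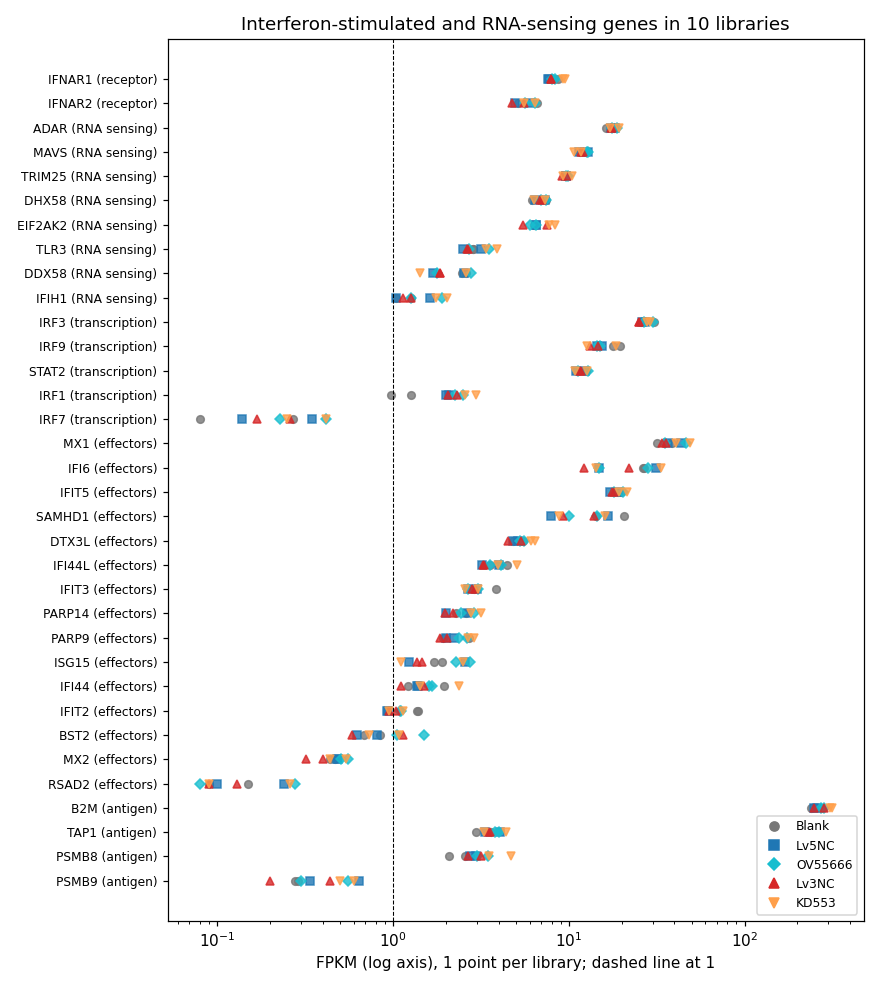
Level of the 34 members in each of 10 libraries, on a log axis of FPKM, grouped by role; each point is a library and its colour and shape give the group. MX2, RSAD2, IRF7 and PSMB9 lie below the dashed line at 1 FPKM in every library, and for IRF1 both Blank libraries lie to the left of the 8 virus libraries.

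Virus delivery was first described by the mean of the 4 virus groups against Blank. IRF1 (gene 102188583) was higher with virus, and no other member passed the test. IRF1 was at 1.27 and 0.98 FPKM in Blank, 2.01 and 2.08 in Lv5NC, 2.26 and 2.50 in OV55666, 2.07 and 2.33 in Lv3NC, and 2.96 and 2.57 in KD553. All 8 virus libraries thus lay above both Blank libraries. The log2 change was 0.65 ± 0.09 (SE; limma adjusted p = 0.0098, Benjamini-Hochberg over 11340 genes), on a scale of log2(FPKM + 1) that understates changes of low genes; with a pseudocount of 0.1 in place of 1 it was 1.00. Over all tested genes 2.78% were called in this comparison, so 1 of 30 members is near the background. The call was lost without Blank-2 (log2 change 0.55, limma adjusted p = 0.152), which also took the number of genes called from 315 to 5.

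The members moved in no common direction with virus delivery. Of the 30 tested, 15 were higher and 15 lower than in Blank, and the median log2 change was 0.00, beside 0.01 over all tested genes. An unadjusted p under 0.05 was reached by 4 of 30 members and by 18.8% of all tested genes. The median was −0.06 without Blank-2 and 0.07 without Blank-1. The 95% interval reached 0.22 to either side in the median member. In 2 members, IRF1 and PSMB8, all virus libraries lay above both Blank libraries (6.51% of all tested genes did so), and in 1, IFIT2, they all lay below (8.4%).

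**Figure D2:**
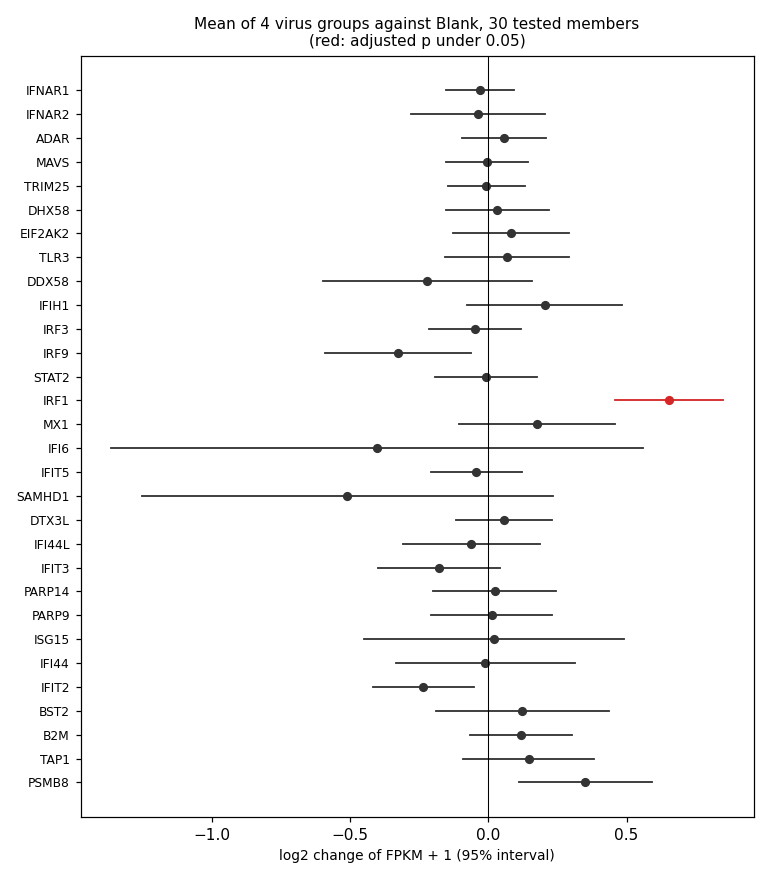
Log2 change of FPKM + 1 between the mean of the 4 virus groups and Blank for the 30 tested members, with 95% intervals from limma; red marks an adjusted p under 0.05. IRF1 at 0.65 is the only member called, and the intervals of IFI6 and SAMHD1 are the widest.

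PSMB8, the immunoproteasome subunit that changes which peptides reach MHC class I, was at 2.59 and 2.10 FPKM in Blank and between 2.69 and 4.72 in the virus libraries. Its log2 change of 0.35 ± 0.11 did not pass (limma adjusted p = 0.119) and was 0.24 without Blank-2. Its neighbour TAP1, the peptide transporter chain, overlapped between the groups (2.97 and 3.62 against 3.29 to 4.42), as did B2M. Among effectors, IFIT2 was at 1.39 and 1.37 FPKM in Blank and between 0.93 and 1.14 in the virus libraries, a log2 change of −0.24 ± 0.08 that did not pass (limma adjusted p = 0.162) and was also −0.24 without Blank-2. IFIT3, which lies next to IFIT2 in the genome and partners its protein, was at 3.86 and 2.91 in Blank and between 2.59 and 3.07 with virus. The classical effectors ISG15 (log2 change 0.02 ± 0.21), MX1 (0.17 ± 0.12), IFI44 (−0.01 ± 0.14) and IFI44L (−0.06 ± 0.11) had intervals on both sides of 0. The direction of ISG15, IFI44 and IFI44L depended on the Blank library left out: without Blank-1 they stood at −0.03, 0.19 and 0.07, and without Blank-2 at 0.07, −0.22 and −0.20. For ISG15 the interval ran from −0.45 to 0.49.

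IRF9, the DNA-binding part of the complex that answers type I interferon, tended the other way from IRF1. It was at 19.7 and 17.9 FPKM in Blank and between 12.7 and 18.7 in the virus libraries, where KD553-1 alone reached into the Blank range. The log2 change of −0.33 ± 0.12 did not pass (limma adjusted p = 0.175), whereas without KD553-1 it did (limma adjusted p = 0.0303). Without Blank-2 it was −0.39. Its partner STAT2 was at 12.6 and 11.2 in Blank and between 10.9 and 12.8 with virus. Of the 8 sensing genes 5 were higher and 3 lower with virus, and 0 were called (limma, 0 with an unadjusted p under 0.05 too). DDX58 had a log2 change of −0.22 ± 0.17 and IFIH1, the sensor of long double-stranded RNA, 0.20 ± 0.12. The receptor chains IFNAR1 and IFNAR2 stood at −0.03 ± 0.05 and −0.04 ± 0.11, the latter at 0.12 without Blank-1.

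**Figure D3:**
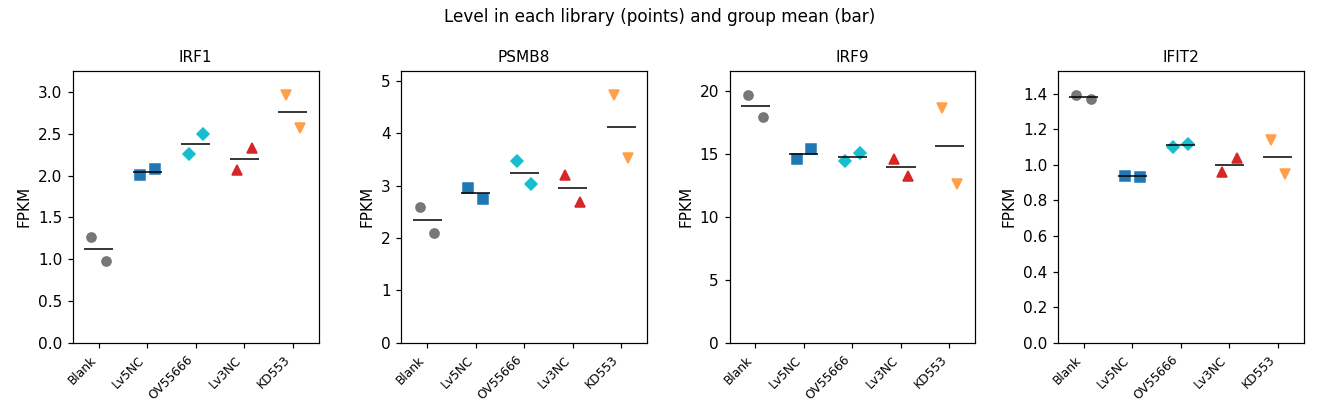
FPKM of IRF1, PSMB8, IRF9 and IFIT2 in each library by group, with the group mean as a bar; the vertical axis of each panel starts at 0. The Blank points of IRF1 and PSMB8 are the lowest of their panel and those of IFIT2 the highest, while for IRF9 one KD553 library, at 18.7 FPKM, lies between the Blank points.

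Each control virus alone was also set against Blank, a comparison that shares the Blank libraries with the one above. In Lv5NC 0 of 30 members were called with limma (2 had an unadjusted p under 0.05, against 12.6% of all tested genes), where 0.291% of all genes were called. The median log2 change was −0.04, with −0.11 without Blank-2 and 0.03 without Blank-1. Both Lv5NC libraries lay above both Blank libraries in 3 members (15.5% of all tested genes did so) and below them in 4 (23.8%). In Lv3NC also 0 were called (3 with an unadjusted p under 0.05, against 14.8% of all genes), where 0.132% of all genes were called, and the median was −0.08, with −0.13 without Blank-2 and 0.0077 without Blank-1. The sign of both medians thus depended on which Blank library was left out. IRF1 had log2 changes of 0.52 ± 0.11 in Lv5NC and 0.59 ± 0.11 in Lv3NC (limma adjusted p = 0.0969 and 0.0932). Left without Blank-1, both passed (limma adjusted p = 0.0443 and 0.0329), and without Blank-2 they stood at 0.42 and 0.49 (limma adjusted p = 0.423 and 0.408).

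Of 13 tested effectors 11 were lower than in Blank in Lv5NC and 12 in Lv3NC, none of them called, with medians of −0.10 and −0.16. Over all 30 members 20 and 21 were lower, beside 52.1% and 46.3% of all tested genes. These counts rested on Blank-1: without it 6 effectors were lower in Lv5NC and 8 in Lv3NC, and 11 and 14 of the 30 members, beside 42% and 38.3% of all tested genes. For Lv5NC the split depended on scaling: 10 were higher as deposited and 13 when each library was shifted to a common median. The Lv3NC libraries lay below both Blank libraries in 12 members (21.9% of all tested genes did so), among them IFI6, SAMHD1 and IRF9, and above them in 2, IRF1 and PSMB8 (24.3%). IFI6 was at 21.9 and 12.2 FPKM in Lv3NC and at 27.0 and 26.5 in Blank (log2 change −0.67 ± 0.52), and SAMHD1 at 14.0 and 9.28 against 20.6 and 14.3 (−0.55 ± 0.40). Both values rested on single libraries: without Lv3NC-2 they were −0.28 and −0.28, and without Lv3NC-1 −1.07 and −0.82. Without Blank-2 they were −0.69 and −0.80, and SAMHD1 was at −0.30 without Blank-1. In Lv5NC, IRF9 was at 14.6 and 15.4 FPKM (−0.31 ± 0.15) and IFIT2 at 0.94 and 0.93 (−0.30 ± 0.10), and PSMB8 at 2.96 and 2.74 (0.21 ± 0.14). Without Blank-2 these changes were −0.37, −0.30 and 0.10, so that of PSMB8 was the most dependent of the 3 on that library. IRF9 had a change of −0.41 ± 0.15 in Lv3NC, and −0.47 without Blank-2.

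Other genes of the pathway, from a list of receptors, kinases, sensors, feedback genes and stimulated genes, were read in the same fit. With virus against Blank, 37 of 54 tested genes were higher, beside 15 of 30 members and 5956 of all 11340 tested genes. In the list of other stimulated genes 25 of 33 were higher. Of the 54, 38 were higher in Lv5NC and 36 in Lv3NC, beside 5430 and 6085 of all 11340. These counts rest on both Blank libraries and carry no test. With virus, 3 of the 54 were called, all higher and all from the list of other stimulated genes, where 1.23% of all tested genes were called higher. PML, which builds nuclear bodies, was at 14.5 and 10.9 FPKM in Blank and between 17.3 and 23.5 with virus (log2 change 0.60 ± 0.10, limma adjusted p = 0.0215). RNF213, a large ubiquitin ligase, was at 3.81 and 2.84 in Blank and between 4.69 and 5.44 with virus (0.52 ± 0.08, adjusted p = 0.0188). TAP2, the partner chain of TAP1 and a direct neighbour of PSMB8 among protein-coding genes, was at 3.77 and 2.72 and between 4.11 and 5.41 (0.51 ± 0.11, adjusted p = 0.0446). For each of the 3, all virus libraries lay above both Blank libraries. In the same order, their changes were 0.41, 0.36 and 0.33 without Blank-2, and 0.79, 0.68 and 0.69 without Blank-1. Without Blank-2 none of them passed (limma adjusted p = 0.243 for PML, 0.182 for RNF213 and 0.398 for TAP2), and TAP2 was also lost on leaving out any library of a virus group (adjusted p from 0.0514 to 0.0811).

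The list also held other genes of antigen processing, of which none was called. TAPBP, which tethers MHC class I to the transporter, was at 56.3 and 44.6 FPKM in Blank and between 56.5 and 75.1 with virus (0.32 ± 0.09, limma adjusted p = 0.1), and its change was 0.16 without Blank-2 and 0.49 without Blank-1 (limma adjusted p = 0.0242). ERAP1, which trims peptides, was at 3.74 and 3.22 against 3.78 to 4.84 (0.26 ± 0.08, limma adjusted p = 0.124; 0.18 without Blank-2). The proteasome genes PSMB10 (0.06 ± 0.24), PSME1 (0.07 ± 0.07) and PSME2 (0.09 ± 0.08) overlapped between the groups. UBE2L6, the conjugating enzyme for ISG15, lay below Blank in all virus libraries (20.7 and 19.3 against 14.6 to 18.7 FPKM; −0.25 ± 0.08, limma adjusted p = 0.12; −0.30 without Blank-2). It was the only 1 of the 54 to do so (8.4% of all tested genes did), whereas 11 lay above both Blank libraries (6.51%). Among those 11, HERC6 (0.57 ± 0.15, limma adjusted p = 0.0779) and IKBKE (0.51 ± 0.14, limma adjusted p = 0.0974) were not called. Without Blank-2 their changes were 0.43 and 0.24, and without Blank-1 they were 0.71 and 0.78.

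Most of the interferon genes themselves stayed below 1 FPKM. IFNE and IFNK reached at most 0.19 and 0.02 FPKM, and the goat genes for interferon beta, omega and tau carry no such symbols in the RefSeq table. By the protein description in the deposited table, 36 rows name a type I interferon, and 29 of them were below 1 FPKM in every library. Their summed level was 10.8 to 15.8 FPKM in the Blank libraries and 11.7 to 16.0 in the virus libraries, so the ranges overlapped. Because these genes are close copies of each other, reads may be split among them. The 5 that passed the filter were not called (limma, 1 with an unadjusted p under 0.05). That one, BGI_novel_G000157, described as interferon omega, had a log2 change of 0.34 ± 0.14, which was 0.04 without Blank-2 and passed without Blank-1 (0.64, limma adjusted p = 0.0274). LOC102180492, described as interferon omega and the highest of the 36 rows, lay between 1.49 and 2.68 and overlapped between the groups. LOC102181867, described as interferon beta, lay between 0.71 and 1.08. TLR7, TLR8 and TLR9, sensors of RNA and DNA mostly in immune cells, reached at most 0.21.

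Some members varied more between the libraries of a group than between groups. IFI6 was at 14.9 and 31.4 FPKM in Lv5NC, 14.9 and 28.2 in OV55666, 21.9 and 12.2 in Lv3NC, and 33.3 and 14.3 in KD553. In Blank it was at 27.0 and 26.5. One library of each virus group was thus near or above the Blank level and the other well below it, except in Lv3NC, where both were lower. SAMHD1 had the same order in each virus group: 7.99 and 16.7, 10.1 and 14.5, 14.0 and 9.28, 16.0 and 8.78 FPKM, in the order of groups used for IFI6. The SD within groups was 0.62 for IFI6 and 0.49 for SAMHD1 on the log2 scale, larger than in 99.6% and 99.0% of tested genes. DDX58 was at 1.69 and 2.53 in Lv5NC, 1.78 and 2.79 in OV55666, 1.87 and 1.86 in Lv3NC, and 2.61 and 1.44 in KD553. ISG15 followed the order of IFI6 in 3 of the 4 groups, with 1.24 and 2.58 in Lv5NC and 2.52 and 1.12 in KD553.

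The order of libraries seen in IFI6 was shared by 8 of 30 members in all 4 virus groups, IFI6 itself included, and by 16% of all tested genes. The other 7 were SAMHD1, DDX58, IRF9, TLR3, IFIT3, PARP9 and STAT2. Of the 54 other pathway genes 14 did so, among them LY6E, XAF1 and PSMB10, an immunoproteasome subunit at 6.08 and 2.70 FPKM in KD553. The opposite order in all 4 groups was seen in 1 of 30 members, B2M, in 8 of the 54 other pathway genes and in 17.1% of all tested genes. Of the listed fibroblast markers, FAP alone had the IFI6 order in all 4 virus groups. It was at 26.4 and 40.0 FPKM in Lv5NC, 37.0 and 39.4 in OV55666, 36.5 and 28.4 in Lv3NC, and 41.0 and 29.2 in KD553. COL1A1, VIM and POSTN had the opposite order in all 4, and the other fibroblast markers had neither. The part of these markers in the pattern was not tested. This pattern was noticed in the data and carries no test. It was not particular to the members. Over all tested genes, deviations of library 1 from its group mean correlated at 0.50 between Lv5NC and OV55666. Between Lv3NC and KD553 they correlated at 0.44, and across these sets between −0.62 and −0.38. What the libraries share was not tested. IFNAR1 and IFIT2 were steady by comparison, with SDs within groups of 0.03 and 0.05. IFIT2 lay between 0.93 and 1.39 FPKM, where the scale of log2(FPKM + 1) understates differences.

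**Figure D4:**
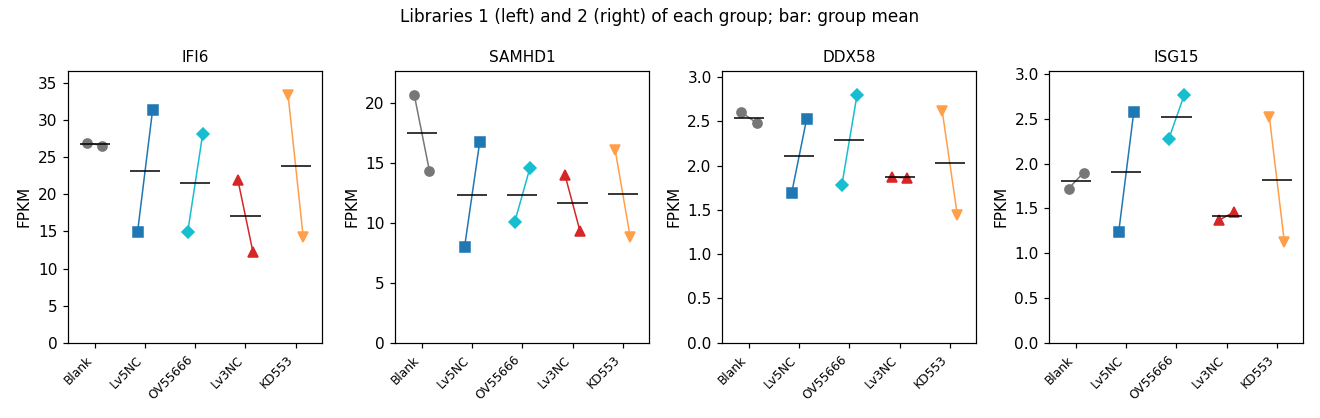
FPKM of IFI6, SAMHD1, DDX58 and ISG15, with a line joining library 1 (left) and library 2 (right) of each group and a bar at the group mean. For IFI6 the line rises in Lv5NC and OV55666 and falls in Lv3NC and KD553, from 33.3 to 14.3 FPKM in the last.

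With lncRNA55666 overexpression no member passed the test against Lv5NC. limma called 0 of 30 members (1 with an unadjusted p under 0.05, where 1.46% of all tested genes had one), and 0% of all genes were called. In this comparison 27 of the 30 were higher, beside 6657 of all 11340 tested genes. The median log2 change of members was 0.08, beside 0.02 over all genes. After shifting each library to a common median 25 of the 30 were higher. The median was at 0.00 without Lv5NC-1 and at 0.15 without Lv5NC-2. In 10 members both OV55666 libraries lay above both Lv5NC libraries (17.7% of all tested genes did so), and in 0 below (9.07%). The same Lv5NC libraries were set against Blank above, where 20 of the 30 members were lower (11 without Blank-1).

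BST2 had the largest of these differences. It was at 1.06 and 1.51 FPKM against 0.63 and 0.81 (0.40 ± 0.18, or 0.75 with a pseudocount of 0.1). PARP9 was at 2.38 and 2.66 against 2.00 and 2.22 (0.18 ± 0.12), IFI44 at 1.68 and 1.61 against 1.37 and 1.39 (0.15 ± 0.18) and IRF1 at 2.26 and 2.50 against 2.01 and 2.08 (0.15 ± 0.11). For each of the 4 the limma adjusted p was 1. BST2 is a tether of enveloped virus at the cell surface, and PARP9 partners DTX3L in marking histones and viral proteins. ISG15, at 2.28 and 2.76 against 1.24 and 2.58, overlapped.

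With the knockdown no member passed either, although most lay above Lv3NC. limma called 0 of 30 members (9 with an unadjusted p under 0.05, where 7.52% of all tested genes had one), beside 0.0705% of all genes. Here too 27 of the 30 were higher, the exceptions being MAVS, IFIT3 and DHX58, beside 5770 of all 11340 tested genes. The median log2 change of members was 0.18, beside 0.00 over all genes. In 14 both KD553 libraries lay above both Lv3NC libraries (19.3% of all tested genes did so), and in 0 below (18.3%). KD553-1 was the higher of the KD553 libraries in 26 of 30 members. Without it the median was 0.10, and without KD553-2 it was 0.27. The same Lv3NC libraries were set against Blank above, where 21 of the 30 members were lower (14 without Blank-1). These comparisons are therefore not independent.

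The differences came from several roles. Among sensors, IFIH1 was at 2.05 and 1.76 FPKM against 1.15 and 1.28 (log2 change 0.39 ± 0.16, limma adjusted p = 0.609), TLR3 at 3.94 and 3.38 against 2.69 and 2.64 (0.34 ± 0.13, adjusted p = 0.573) and EIF2AK2 at 7.77 and 8.35 against 5.53 and 7.55 (0.28 ± 0.12). The helicase DDX58, at 2.61 and 1.44 against 1.87 and 1.86, overlapped. Among effectors, the neighbouring genes PARP9, DTX3L and PARP14 lay together: PARP14, an ADP-ribosyl transferase, was at 3.16 and 2.79 against 1.99 and 2.21 (0.36 ± 0.12, adjusted p = 0.534), and DTX3L, a ubiquitin ligase, at 6.10 and 6.48 against 4.53 and 5.37 (0.30 ± 0.10, adjusted p = 0.505). IFI44L was at 5.08 and 3.95 against 3.27 and 3.29 (0.36 ± 0.14, adjusted p = 0.603).

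The receptor chain IFNAR1 was at 9.55 and 9.24 FPKM in KD553 against 7.96 and 7.92 in Lv3NC (0.22 ± 0.07, limma adjusted p = 0.491), which lay above every other library of the series. PSMB8 was at 4.72 and 3.53 against 3.20 and 2.69 (0.37 ± 0.14, adjusted p = 0.573), and B2M at 306.8 and 313.8 against 249.4 and 284.0 (0.22 ± 0.10). IRF1, at 2.96 and 2.57 against 2.07 and 2.33 (0.23 ± 0.11, adjusted p = 0.682), had its highest levels in KD553. IFI6 and SAMHD1, with their spread between libraries, had intervals from −0.82 to 1.61 and from −0.88 to 1.00. In the contrast of the knockdown effect with the overexpression effect limma called 0 of 30 members and 0 of all 11340 tested genes. An unadjusted p under 0.05 was reached by 0 members and by 386 of all tested genes. The median difference was 0.09 in the members, beside −0.02 over all tested genes. The interval reached 0.40 to either side in the median member. No difference between the effects was therefore detectable at this size, and this does not show that they were alike.

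**Figure D5:**
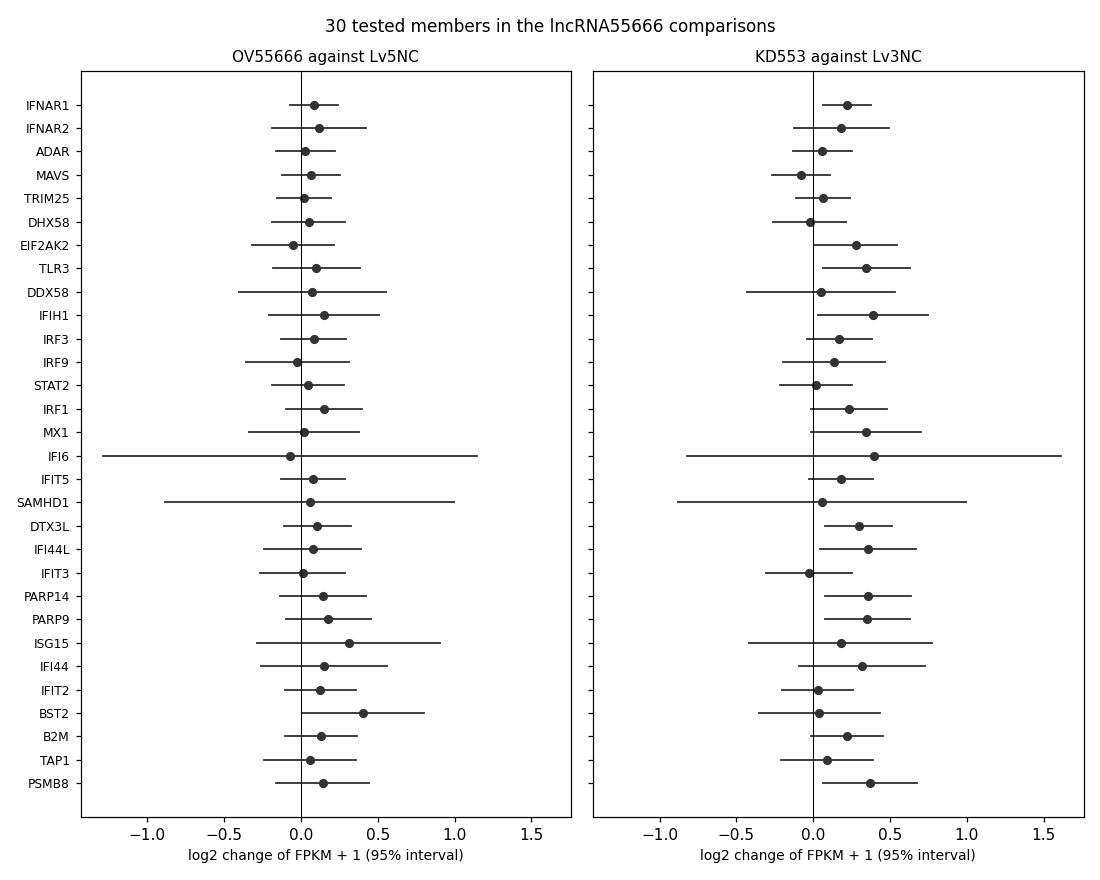
Log2 change of FPKM + 1 for the 30 tested members in OV55666 against Lv5NC (left) and KD553 against Lv3NC (right), with 95% intervals from limma. In both panels 27 of 30 points lie to the right of 0, with medians of 0.08 and 0.18, and no member is called.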

How the data were processed

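The authors deposited FPKM values rounded to 2 decimals for 17197 genes in 10 libraries made from total RNA, per the file headers and the labels. For aligner, quantification tool and genome build the entry is: not given in the sources used here. The sum of FPKM over genes ran from 440565 to 460423, and relative depths are not analysed here. Identifiers were looked up in RefSeq's gene table for assembly ARS1.2 (16658 matched, 539 did not), used for symbols and for gene order only. Titles and descriptions number the KD553 samples differently, so KD553-1 and KD553-2 are the column numbers.

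Values were tested as log2(FPKM + 1) in 11340 genes with at least 1 FPKM in at least 2 libraries, with limma 3.58.1 in R 4.3.3 (group means, trend, robust) on all 10 libraries. p-values were adjusted by Benjamini-Hochberg over all genes and called under 0.05. The fit was tested on simulated data with 200 genes changed. It recovered 91.7 to 96.7% of log2 changes of 1 over the comparisons. Of changes of 0.5 it recovered 76.3% for virus delivery and 50.3 to 57.3% in the other comparisons. The noise was drawn independently for each gene and library, so deviations shared between libraries or genes were not part of it. Called members and the 4 with the largest change among those without overlap were recomputed under each alternative, as were called genes of the other lists. The members and lists were chosen with earlier results of these data known. No row is named for lncRNA55666, so its level was not analysed here. No sequences were used.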

Additional observations from a re-analysis of the deposited data

How the results depend on the processing

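Alternatives were a pseudocount of 0.1, no filter on low values, shifting libraries to a common median, quantile normalization, fitting only the groups compared, replicate numbers as a block, and leaving out each library. The genes recomputed under all of them (IRF1, PML, RNF213, TAP2 and, in each comparison, up to 4 members without overlap) kept their direction. Other genes were recomputed only without a Blank library. IRF1 was called for virus delivery in each except without Blank-2 (limma adjusted p from 0.00718 to 0.152 over all alternatives). The number of members called ranged from 0 to 2 for virus delivery, 0 to 1 in Lv5NC and in Lv3NC against Blank, and stayed at 0 for OV55666 and KD553 when a library was left out. The median log2 change of members ranged from −0.06 to 0.07 for virus delivery, −0.11 to 0.03 for Lv5NC, −0.14 to 0.0077 for Lv3NC, −7.0e-05 to 0.15 for OV55666 and 0.10 to 0.27 for KD553.

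The number of genes called moved more. Leaving out a library gave 5 to 702 for virus delivery (315 with all), 0 to 288 for Lv5NC (33), 0 to 292 for Lv3NC (15), 0 to 12 for KD553 (8) and 0 for OV55666 (0). A pseudocount of 0.1 gave 18 for Lv5NC, 6 for Lv3NC and 1 for OV55666, and no filter 13 for Lv5NC and 7 for Lv3NC. Fitting only the groups compared gave 56 for Lv3NC and 0 for KD553. With the replicate block it was 143 for virus delivery, 0 for Lv5NC, 0 for Lv3NC and 1 for KD553, and with the KD553 numbers exchanged in the block 12 for Lv5NC and 5 for KD553. The cause was not tested. The replicate block kept IRF1 called (limma adjusted p = 0.0287) and lost TAP2 (0.0733; 0.0589 with the KD553 numbers exchanged), which was also lost without a filter (0.0743). The numbers share no stated origin. Deviations of same-numbered libraries from their group means correlated across genes at 0.50 for Lv5NC with OV55666 and 0.44 for Lv3NC with KD553. Pairs of Lv5NC or OV55666 with Lv3NC or KD553 lay between −0.62 and −0.38, and pairs with Blank between −0.08 and 0.16. A block by number, with or without the KD553 exchange, could not take up these deviations in full, because their signs differ between groups. FPKM without read counts sets no limit by depth, and a group left with 1 library is assumed to vary like the others.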

Other observations

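Rows whose protein description names a member without a matching symbol, or a related gene, were also read. These rows were chosen after their values were seen. LOC102168687, described as IFIT1, which binds viral RNA caps, was at 24.5 and 20.9 FPKM in Blank and between 19.4 and 30.9 with virus, so that the groups overlapped. LOC102180290, described as USP18, the protease that removes ISG15 and damps the interferon receptor, was at 13.2 and 14.5 in Blank and between 9.02 and 12.3 with virus, below both Blank libraries in each (log2 change −0.32 ± 0.08, limma adjusted p = 0.0639; −0.26 without Blank-2). For OAS2, the rows of that description, LOC102186893 and LOC108637852, reached at most 0.02 and 0.04 FPKM. LOC102190983, described as oligoadenylate synthase 3-like, an enzyme that activates RNase L, had the order of libraries of IFI6 in each virus group. It was at 12.7 and 17.7 in Lv5NC, 11.6 and 19.3 in OV55666, 12.1 and 11.4 in Lv3NC, and 22.4 and 13.0 in KD553. LOC102170144, described as guanylate-binding protein 1-like and not as GBP2, was at 3.99 and 2.32 in Blank and between 4.46 and 6.81 with virus. Its log2 change was 0.66 ± 0.17 (limma adjusted p = 0.0831), with 0.37 without Blank-2 and 0.96 without Blank-1. LOC102180655, described as IFITM3, a membrane protein that blocks virus entry, lay between 225 and 260 in all 10 libraries, close to the level of B2M.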
